A study of Mus musculus with 2 samples.

Results

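Matricellular proteins and adhesive glycoproteins are secreted molecules that sit in the matrix around a cell, together with the receptors that bind them. The 8 genes described here are *Thbs1* and *Thbs2* (thrombospondins), *Postn* (periostin), *Tnc* (tenascin C), *Spp1* (osteopontin), *Sparc* (osteonectin), *Fn1* (fibronectin) and *Cd44* (a receptor for hyaluronan and for osteopontin). They were taken by symbol, with earlier results of these data known, and are 8 of the 31053 genes listed for each library. They were read in cultured primary mouse brain pericytes (PCs), with 1 library of passage 5 cells (PC5) and 1 of passage 20 cells (PC20). All cells came from female wild type C57BL/6N mice aged 6 to 8 weeks, whose brains were pooled in sets of 6, digested with papain, and grown on collagen I without sorting, first in endothelial and then in pericyte medium. The methods of the study give each passage its own isolation, so passage and isolation cannot be told apart here.

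Thrombospondins, periostin, tenascin C, osteopontin and SPARC are called matricellular because they are made to change how cells hold on to the matrix rather than to build its scaffold. Fibronectin does both, since it forms fibrils and is the ligand that cells grip through integrins. In the brain, pericytes share a basement membrane with the endothelium, and matricellular genes are best known from wound repair, fibrosis and vessel growth.

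Each captured RNA molecule was counted once by a unique molecular identifier (UMI) at its 3′ end, so counts were not divided by gene length. After the filter of the study on genes and mitochondrial UMIs, 9950 of 10629 PC5 barcodes and 4749 of 4884 PC20 barcodes remained, with medians of 21700 and 33424 UMIs. A level is given in CPM, the UMIs of a gene divided by the UMIs of all kept cells and multiplied by 1000000, with its 95% interval, which covers counting error only. Each passage had only 1 library, so differences could not be set against a spread between cultures, and no p-value was computed. Shares of cells and spread between cells were read after each cell was cut at random to 10500 UMIs (thinned), which kept 8847 PC5 and 4474 PC20 cells. The libraries shared 20 barcode sequences, 0.421% of the PC20 cells. The label of the cells was met in part. Of 9 pericyte markers, 6 in PC5 and 3 in PC20 were seen in at least 1% of thinned cells. The 9 summed to 67.3 and 11.5 CPM, of which *Pdgfrb* gave 44.6 and 5.43 CPM. *Rgs5* and *Kcnj8* were at 0 UMIs in PC20 (405 and 13 in PC5), and *Abcc9* had 1 UMI in each library. *Anpep* (1.93 and 3.00 CPM) and *Des* (0.251 and 0.937 CPM) were higher in PC20. Of 5 fibroblast markers, 5 in PC5 and 2 in PC20 were seen in at least 1% of thinned cells. The 5 summed to 1877 and 107 CPM, of which *Col3a1* gave 1158 and 101 CPM and *Col1a1* 576 and 6.04 CPM. *Pdgfra* had 88.6 and 0.131 CPM, *Dcn* 51.3 and 0.167 CPM and *Lum* 3.57 and 0 CPM. The summed smooth muscle markers had 283 and 49.6 CPM and the endothelial markers 201 and 74.1 CPM, the former mostly *Tagln* in PC5 and *Acta2* in PC20 and the latter mostly *Cdh5* in PC5 and *Flt1* in PC20. Microglial and oligodendrocyte markers were below 1 CPM in sum in both libraries, and the astrocyte list, with 151 and 229 CPM, was nearly all *Slc4a4*.

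Of the 8 genes, 5 were at least 2-fold higher in PC5 (*Postn*, *Thbs2*, *Thbs1*, *Cd44* and *Spp1*), 2 were higher in PC5 by less (*Tnc* and *Fn1*), and *Sparc* was slightly higher in PC20. Of the 8, 0 were 2-fold higher in PC20. A gene was called seen when 10% or more of the cells of 1 of the libraries held its UMI. Among all 10504 genes seen, 17.9% were at least 2-fold higher in PC5, 19.1% at least 2-fold higher in PC20 and 48.9% higher in PC5 by any size, against 7 of the 8. The median log2 ratio of PC5 over PC20 was 1.61 for the 8 genes and -0.03 for all 10504. *Postn* and *Thbs2* met the 10% limit only in PC5, where they were high. The comparison with genes seen is therefore no separate support for their difference. Together the 8 genes held 0.628% of the UMIs of PC5 and 0.319% of those of PC20. *Spp1* made up 62.2% of that sum in PC5 and 43.8% in PC20, and *Sparc* 16.9% and 36.7%, so the mixture of these RNAs differed as well as their sum. The summed pericyte, fibroblast, smooth muscle and endothelial markers were also higher in PC5, and their part in the differences below was not tested.

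**Figure D1:**
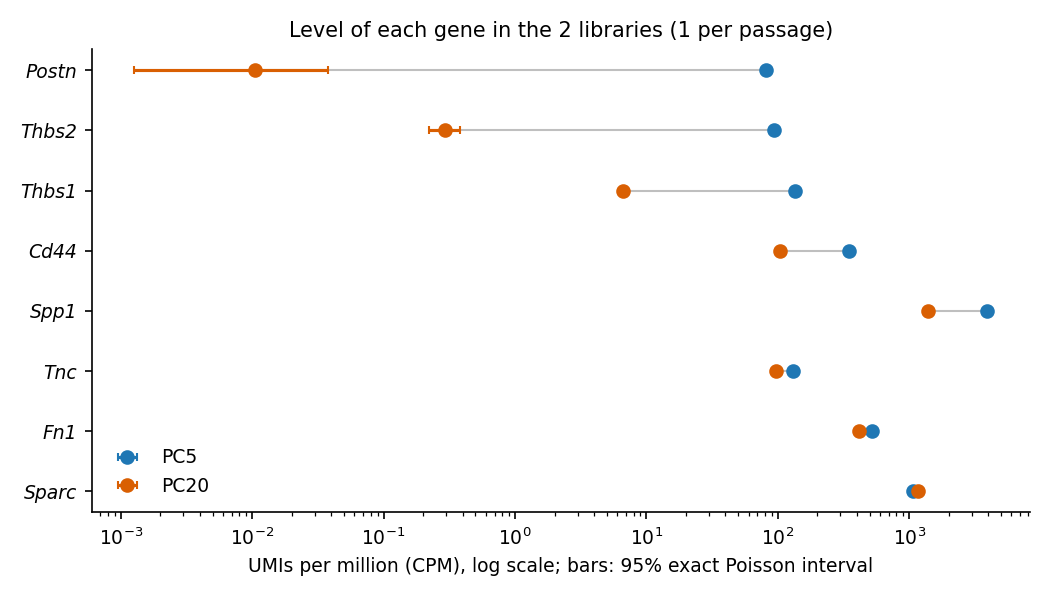
Level of each of the 8 genes in PC5 (blue) and PC20 (orange) in CPM on a log axis, with 1 library per passage and bars for the 95% exact Poisson interval (for most genes narrower than the point). The gap between the libraries runs from *Postn*, at 80.9 and 0.0105 CPM, down to *Sparc*, at 1062 and 1171 CPM.

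The thrombospondins are trimeric glycoproteins that slow vessel growth, and thrombospondin 1 also releases TGF-beta from its latent form. *Thbs1* (ENSMUSG00000040152, GRCm38 chromosome 2 from 118111876 to 118127133) had 30251 UMIs in PC5, or 136 CPM (134 to 137), and 1276 UMIs in PC20, or 6.68 CPM (6.32 to 7.05). Its level was 20.3-fold higher in PC5 (19.2 to 21.5). *Thbs2* (ENSMUSG00000023885, chromosome 17 from 14665500 to 14694235) had 21034 UMIs in PC5, or 94.3 CPM (93.0 to 95.6), and 56 UMIs in PC20, or 0.293 CPM (0.221 to 0.380). Its level was 322-fold higher in PC5 (248 to 426). Both genes were thus lower in PC20, where *Thbs2* was all but missing and *Thbs1* had over 1000 UMIs. Without the 20 shared barcodes the *Thbs1* log2 ratio was 4.35, against 4.34 with them, since they held 12 of its 1276 PC20 UMIs. *Thbs1* overlaps a lincRNA gene on the other strand, *Gm29233*.

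Periostin binds collagen and integrins and is made by activated fibroblasts and healing tissue. *Postn* (ENSMUSG00000027750, chromosome 3 from 54361109 to 54391037) had 18051 UMIs in PC5, or 80.9 CPM (79.8 to 82.1), and 2 UMIs in PC20. The ratio was 7733-fold (2141 to 63862) and rests on those 2 PC20 UMIs, neither of which was in a barcode shared with PC5. The log2 ratio was 12.92, above that of 99.96% of the genes seen.

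Tenascin C loosens adhesion and is induced in injury and development. *Tnc* (ENSMUSG00000028364, chromosome 4 from 63959785 to 64047015) had 29077 UMIs in PC5, or 130.4 CPM (129 to 132), and 18630 in PC20, or 97.5 CPM (96.1 to 98.9), a level 1.34-fold higher in PC5 (1.31 to 1.36). The difference was small beside those of the thrombospondins and periostin.

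Osteopontin is a phosphoprotein ligand of integrins and CD44, and SPARC binds collagen and helps its assembly outside the cell. *Spp1* (ENSMUSG00000029304, chromosome 5 from 104435118 to 104441050) ranked 57th of all genes by UMIs in PC5 and 115th in PC20. With 3910.1 CPM (3902 to 3918) in PC5 against 1397 CPM (1392 to 1402) in PC20, it was 2.80-fold higher in PC5 (2.79 to 2.81). *Sparc* (ENSMUSG00000018593, chromosome 11 from 55394500 to 55423183) ranked 130th and 125th. At 1062 CPM (1058 to 1067) in PC5 against 1171 CPM (1166 to 1176) in PC20, it was 1.10-fold higher in PC20. Of the 8 genes *Sparc* differed least between the libraries, and 46.1% of the genes seen had a lower log2 ratio.

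*Fn1* (ENSMUSG00000026193, chromosome 1 from 71585520 to 71653200), the fibronectin gene, stood at 519.7 CPM (517 to 523) in PC5 against 413 CPM (409.9 to 416) in PC20, 1.26-fold higher in PC5 (1.25 to 1.27). It overlaps *Apol7d*, annotated as antisense. *Cd44* (ENSMUSG00000005087, chromosome 2 from 102811141 to 102901665), the receptor among the 8, stood at 351 CPM (349 to 354) in PC5 against 105 CPM (103 to 106) in PC20, 3.35-fold higher in PC5 (3.30 to 3.40). In the plot of levels, *Fn1* therefore sits beside *Sparc* and *Tnc* with a small gap, and *Cd44* beside its ligand *Spp1* with a larger one.

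The DNA just upstream of the start was available from RefSeq (GRCm38.p6) for 6 of the 8 genes. For *Sparc* the RefSeq start lies 3103 bases from the gene start annotated by GENCODE and inside the gene span given above, so its sequence is upstream of an inner start. The 250 bases before the start are shown for the 4 of these 6 genes that were at least 2-fold higher in PC5, so that their start regions can be compared. Capitals mark matches, on either strand, to the letters TATAAA, the core of the TATA box, and to the letters CCAAT, bound by the factor NF-Y. *Postn* lies at chr3:54360857-54361106 (plus strand), *Thbs2* at chr17:14694263-14694512 (minus), *Spp1* at chr5:104434861-104435110 (plus) and *Cd44* at chr2:102901666-102901915 (minus). Where RefSeq gave more than 1 start, the one nearest the annotated gene start was taken.
Postn: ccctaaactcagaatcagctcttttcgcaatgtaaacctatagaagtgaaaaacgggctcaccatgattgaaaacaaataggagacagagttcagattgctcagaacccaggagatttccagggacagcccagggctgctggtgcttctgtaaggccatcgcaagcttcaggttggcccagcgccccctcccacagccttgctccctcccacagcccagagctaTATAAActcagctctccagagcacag
Thbs2: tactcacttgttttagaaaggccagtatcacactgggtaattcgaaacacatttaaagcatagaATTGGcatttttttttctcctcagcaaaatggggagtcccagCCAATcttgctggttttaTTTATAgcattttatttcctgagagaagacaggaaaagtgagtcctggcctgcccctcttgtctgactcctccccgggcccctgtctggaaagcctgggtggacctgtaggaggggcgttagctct
Spp1: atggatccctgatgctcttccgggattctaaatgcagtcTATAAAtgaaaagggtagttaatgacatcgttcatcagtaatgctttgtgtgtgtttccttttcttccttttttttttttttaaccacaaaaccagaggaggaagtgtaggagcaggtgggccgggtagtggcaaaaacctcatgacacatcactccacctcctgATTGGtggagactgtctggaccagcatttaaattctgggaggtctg
Cd44: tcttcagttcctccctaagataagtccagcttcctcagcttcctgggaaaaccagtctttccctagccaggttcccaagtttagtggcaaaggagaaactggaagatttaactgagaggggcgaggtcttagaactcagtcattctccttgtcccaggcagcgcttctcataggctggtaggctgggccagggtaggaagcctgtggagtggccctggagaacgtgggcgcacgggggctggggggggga

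The *Postn* sequence held TATAAA with its first base 26 bases before the start, while the match lay 126 bases before it in *Thbs2* and 211 bases in *Spp1*. The *Cd44* sequence held neither motif. *Thbs2* had CCAAT at 186 and 144 bases before the start and *Spp1* at 46 bases. A match on the other strand reads ATTGG or TTTATA in the print. *Tnc*, not printed, had TATAAA at 126 and GGGCGG (GC box) at 167 bases before its start. Of 32851 upstream sequences of the same length, 12.4% held TATAAA, 33.8% CCAAT and 32.7% GGGCGG. No match was found in any of the 6 genes to TGANTCA (AP-1), GGAATG (TEAD), GTCTAGAC (SMAD), CACGTG (E-box) or the CArG box, which were in 6.75%, 12.6%, 0.167%, 6.02% and 1.47% of all such sequences. A CArG box can hold TATAAA or CCAAT within it, but no CArG match was found in these genes.

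The share of cells with a UMI separated the 8 genes further. *Spp1* and *Sparc* were found in over 99% of thinned cells of both libraries (99.9% and 99.3% for *Spp1*, 99.6% and 99.7% for *Sparc*). *Fn1* was found in 93.9% (93.4 to 94.4) of PC5 and 92.0% (91.1 to 92.8) of PC20 cells. *Cd44* was found in 88.6% (88.0 to 89.3) and 60.8% (59.3 to 62.2), although without thinning the shares were 92.3% and 88.4%. *Thbs2* was found in 45.6% (44.5 to 46.6) of PC5 and 0.358% (0.205 to 0.580) of PC20 cells, and without thinning in 59.8% and 1.01%. *Thbs1* was found in 39.6% (38.5 to 40.6) and 4.47% (3.88 to 5.12), and without thinning in 52% and 11.7%. *Postn* was found in 31.5% (30.5 to 32.5) of PC5 cells and in 0 of 4474 PC20 cells, which allows a share of cells with a UMI of up to 0.0671% (a floor of 3 cells). Without thinning *Postn* had a UMI in 41.6% and 0.0421%. No cell type in these cultures is known to lack the 8 genes, so 8 genes of neurons and blood were read as a low estimate of free RNA. They had a UMI in at most 0.0678% of thinned PC5 cells and 0.0224% of thinned PC20 cells (0.121% and 0.147% without thinning). The *Postn* share in PC20 could not be told apart from that background, and those of *Thbs1* and *Thbs2* were above it.

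The *Tnc* share depended on depth. A *Tnc* UMI was found in 48.4% (47.4 to 49.5) of thinned PC5 cells and 57.1% (55.6 to 58.5) of thinned PC20 cells, and without thinning in 60.7% and 81.7%. With cells thinned to 5000 UMIs the shares were 33.7% and 34.7%. Since its CPM was higher in PC5, no order was read from these shares. The counts per cell show both facts at once, as 8.08% of PC5 cells but 1.61% of PC20 cells held at least 5 *Tnc* UMIs.

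The number of the 8 genes found in 1 thinned cell had a median of 5 in PC5 and 4 in PC20. Of the PC5 cells 48.3% held at least 6 of the genes, and of the PC20 cells 1.70%. To reach 6, a cell needed at least 1 of *Thbs1*, *Thbs2* and *Postn*. These were in 4.47%, 0.358% and 0% of thinned PC20 cells, so the contrast restates their shares and is not a separate result. The summed UMIs of the 8 genes per cell had a median of 58 in PC5 (5th to 95th percentile 27 to 148) and 29 in PC20 (13 to 68). Much of this was *Spp1*, with medians of 32 and 11 UMIs per thinned cell. Without *Spp1*, the genes held 0.237% of the UMIs of kept PC5 cells and 0.179% in PC20.

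**Figure D2:**
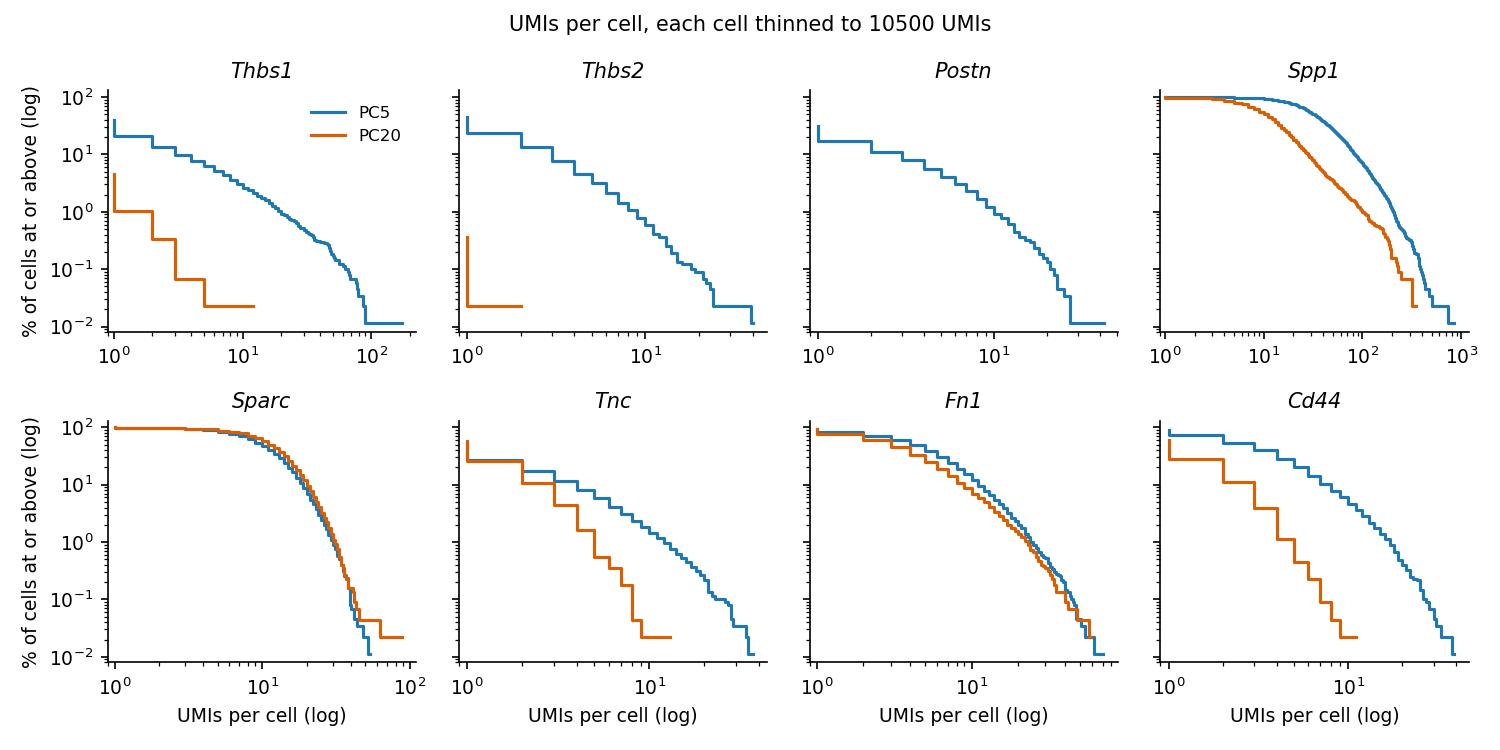
Percent of cells (log axis) that held at least the number of UMIs on the x axis (log), for each of the 8 genes in PC5 (blue) and PC20 (orange), each cell thinned to 10500 UMIs. The *Sparc* and *Fn1* curves of the libraries lie close together, *Tnc* curves cross, *Thbs1* reaches 172 UMIs in 1 PC5 cell, and *Postn* has no PC20 curve because its count there was 0.

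The spread between cells within a library was described by the Fano factor, the variance of UMIs per thinned cell divided by their mean, which is 1 for counts that vary by chance sampling alone. Over genes with a UMI in 10% or more of the thinned cells its median was 1.08 in both libraries (7439 genes in PC5, 7290 in PC20), and its 95th percentile was 2.01 and 1.88. All 8 genes lay above that percentile in PC5, from 3.25 for *Sparc* to 39.4 for *Spp1*. In PC20 *Spp1* (26.8), *Fn1* (4.71) and *Sparc* (3.24) lay above it, whereas *Tnc* (1.47) and *Cd44* (1.30) lay below. *Thbs1* had 2.06 there at a mean of 0.0615 UMIs per cell. *Tnc* and *Cd44* were thus spread unevenly over PC5 cells, at 4.84 and 3.35, and nearer to sampling spread in PC20, where their means were lower too (1.38 and 1.01 UMIs per cell for *Tnc*, 3.64 and 1.06 for *Cd44*). *Sparc* and *Fn1* had nearly equal Fano factors in the libraries (3.25 and 3.24, 4.79 and 4.71). The Fano factor grows with the mean, and it moved with the thinning depth for all of the genes.

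**Figure D3:**
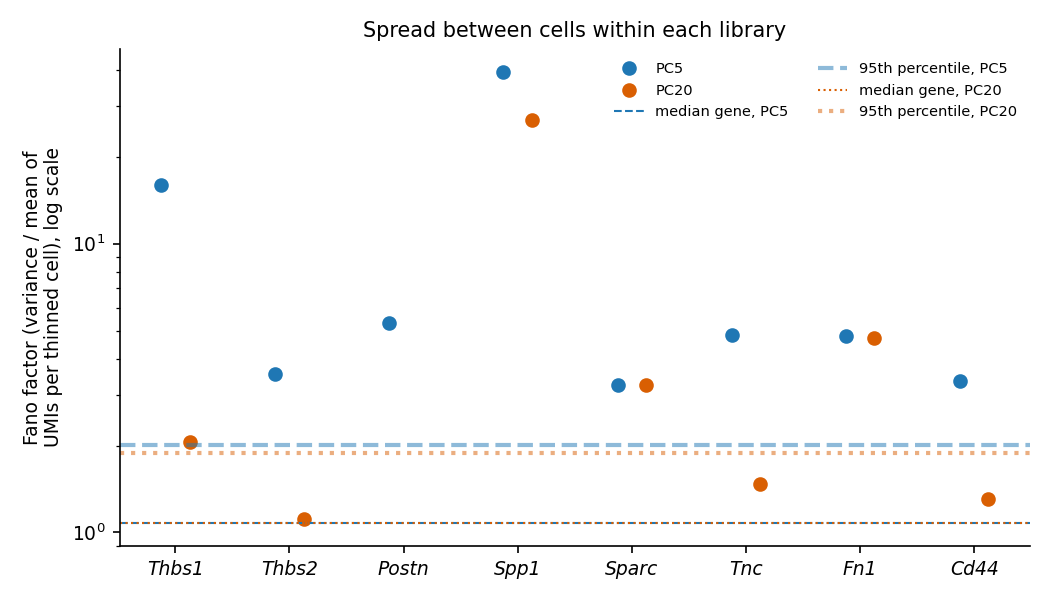
Fano factor (variance over mean of UMIs per thinned cell, log axis) of each of the 8 genes in PC5 (blue) and PC20 (orange), beside the median gene (thin lines, 1.08 in both libraries) and the 95th percentile of genes (thick lines, 2.01 and 1.88). *Tnc* and *Cd44* are above the thick lines in PC5 and below them in PC20, *Spp1* is far above in both, and *Postn* has no PC20 point because its count there was 0.

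*Thbs1* was the most unequal of the genes in PC5 by the share of its UMIs in few cells. The 10% of cells with the most *Thbs1* held 70.3% of its UMIs, and 60.4% of cells held none, where a Poisson count of that mean would leave 22.5% at 0. Only 0.181% of cells had at least 50 *Thbs1* UMIs, and the highest had 172. For *Postn* the 10% of cells with the most held 67.1% of the UMIs and 68.5% of cells held none (Poisson 40.5%). For *Tnc* these values were 53.3% and 51.6% (Poisson 25.1%), and for *Thbs2* 50.3% and 54.4% (Poisson 34.4%). At the even end, the top 10% of cells held 21.3% of the *Sparc* UMIs in PC5 and 20.4% in PC20. *Spp1* was seen in nearly every cell and yet ranged widely, with a median of 32 UMIs per thinned PC5 cell, a 5th to 95th percentile of 9 to 116 and a highest value of 849. In PC20 its median was 11, with 2 to 40 and 347.

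The cells rich in each gene were compared next. For each gene, cells at or above the 95th percentile of its thinned UMIs were called high, for example at least 116 *Spp1* UMIs in PC5 (447 cells) and at least 40 in PC20 (227 cells). Ties make some of these sets larger than 5%, up to 504 of 4474 cells for *Cd44* in PC20. No p-value belongs to these overlaps, as the cells share 1 library.

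*Spp1* and *Fn1* were high in overlapping cells in both libraries. In PC5, 150 cells were high in both genes, 33.6% of the *Spp1*-high and 31.6% of the *Fn1*-high cells, while 3.87% of the other cells were *Fn1*-high. The mean *Fn1* count was 12.8 UMIs in *Spp1*-high cells and 5.20 in the others. In PC20, 95 cells were high in both, 41.9% of the *Spp1*-high and 41.7% of the *Fn1*-high cells, while 3.13% of the other cells were *Fn1*-high. There the mean *Fn1* count was 12.8 in *Spp1*-high cells and 3.89 in the others. *Thbs2* was also higher in *Spp1*-high PC5 cells, with a mean of 2.76 UMIs against 0.976 in the others. *Spp1*-high PC5 cells were shallower (median of 17051 deposited UMIs against 23466) and less often held a UMI of the proliferation genes *Mki67* or *Top2a* (9.84% against 36.9%). In PC20 the depths were 34008 and 34898 UMIs and the *Mki67* or *Top2a* shares 29.1% and 59.1%. *Thbs1*, though low in PC20, was also higher in the *Spp1*-high cells there, at a mean of 0.383 UMIs against 0.0443 in the others.

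*Thbs1*, *Tnc* and *Cd44* overlapped pair by pair in PC5. Of the 456 *Thbs1*-high cells, 121 (26.5%) were *Tnc*-high and 121 (26.5%) were *Cd44*-high, whereas 4.76% and 4.89% of the other cells were. The cells shared with *Thbs1* were 23.3% of the *Tnc*-high and, in the other pair, 22.8% of the *Cd44*-high cells. *Tnc* and *Cd44* shared 119 cells, 22.9% of the *Tnc*-high cells. The cells high in all 3 genes were not counted. The mean *Thbs1* count was 6.04 UMIs in *Tnc*-high and 1.21 in other cells, and the mean *Cd44* count was 6.60 and 3.46. Of the *Spp1*-high cells 4.47% were *Tnc*-high and 4.70% *Cd44*-high, below the 5.95% and 6.07% of other cells, but 9.40% were *Thbs1*-high, above the 4.93% of other cells. Depths of *Thbs1*-high cells were close to the rest, at medians of 21654.5 and 23162 UMIs.

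*Postn* and *Sparc*, both of which bind collagen, overlapped as well. Of the 492 *Postn*-high PC5 cells 87 were *Sparc*-high, 17.7% of the first set and 17.8% of the second, while 4.81% of the other cells were. The mean *Sparc* count was 15.2 UMIs in *Postn*-high cells and 10.8 in the others, and the mean *Cd44* count 3.05 and 3.68. The pairs described so far do not divide the 8 genes into separate groups. *Sparc*-high cells overlapped as much with *Tnc*, at 86 cells or 17.6%, against 5.19% of the other cells. *Thbs2*-high cells made up 29.5% of the *Fn1*-high (140 cells), 20.8% of the *Tnc*-high and 16.7% of the *Postn*-high cells. Among the cells outside each of these sets, 6.33%, 6.75% and 7.04% were *Thbs2*-high. *Fn1*-high cells made up 15.2% of the *Tnc*-high cells, against 4.76% of the other cells.

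**Figure D4:**
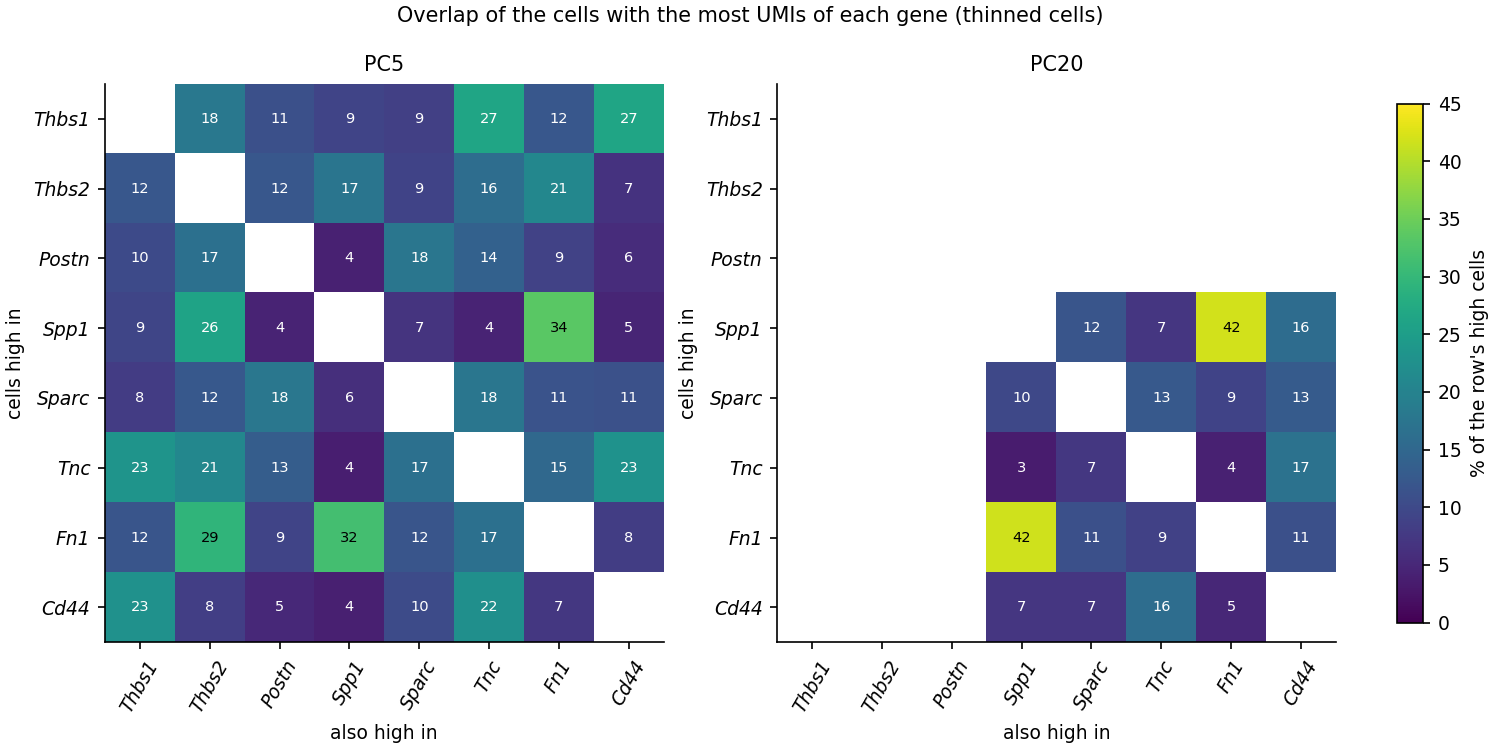
Overlap of the cells that were high in each gene (at or above the 95th percentile of thinned UMIs), in PC5 (left) and PC20 (right); each square gives the percent of the cells high in the row's gene that were also high in the column's gene, and empty rows in PC20 are genes with too few UMIs. The *Spp1* and *Fn1* pair has the highest shares in both libraries (33.6% and 41.9% of *Spp1*-high cells), and in PC5 *Thbs1* shares cells with *Tnc* and with *Cd44* (26.5% of *Thbs1*-high cells in each pair).

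Over all thinned cells the genes were only loosely related. Spearman's rho between pairs of the 8 genes ran from -0.08 (*Postn* and *Cd44*) to 0.30 (*Thbs2* and *Spp1*) over 28 pairs in PC5, with a median of 0.12. Over the 21 pairs with counts in PC20 it ran from -0.02 to 0.28 (*Spp1* and *Sparc*), with a median of 0.04. Cells of 1 library share depth and preparation, and values this small in sparse counts are not read as relations. With summed UMIs of 10 collagen genes, rho was 0.49 for *Sparc* and 0.37 for *Postn* in PC5, and 0.30 for *Fn1* and 0.27 for *Sparc* in PC20. With contractile genes it was highest for *Tnc* (0.31) and lowest for *Spp1* (-0.27) in PC5. With chemokine and interferon genes *Spp1* had the highest value in PC5 (0.29), and in PC20 its value was 0.01.

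The genes most like each of the 8 over thinned cells were named up to the third, where rho was at least 0.3. In PC5, 8 genes reached that value with *Sparc*, 8 with *Spp1*, 2 with *Postn* and 1 with *Cd44*, and in PC20 9 with *Spp1*, 4 with *Fn1* and 2 with *Sparc*. In PC5 *Sparc* was followed by *Col1a1* (0.40), *Col1a2* (0.37) and *Nid1* (0.37), *Postn* by *Col3a1* (0.39) and *Cthrc1* (0.30), *Spp1* first by *Selenop* (0.43) and *Cp* (0.35), and *Cd44* by *Crct1* (0.33). No gene reached 0.3 with *Thbs1*, *Thbs2*, *Tnc* or *Fn1* in PC5. In PC20 *Spp1* was followed by *Ctla2a* (0.47), *Tmsb4x* (0.41) and *Mgp* (0.38), *Fn1* by *Mgp* (0.45), *Qsox1* (0.35) and *Ctla2a* (0.31), and *Sparc* by *Bsg* (0.35) and *Serpinh1* (0.34). *Ctla2a* and *Mgp* were named for both *Spp1* and *Fn1* in PC20. Of all genes at 0.3 or more, *Serpinh1*, a chaperone of collagen, was alone in reaching it with the same one of the 8 genes, *Sparc*, in both libraries.

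Proliferating cells differed between the libraries, with a UMI of *Mki67* or *Top2a* in 35.6% of thinned PC5 and 57.6% of thinned PC20 cells. Levels were therefore also compared within each library between cells with and without such a UMI. *Thbs2* was lower in PC5 cells with one, at 70.0 against 119 CPM, a log2 ratio of -0.76 (-0.83 to -0.70). *Spp1* was lower with one in both libraries, at 3165 against 4716 CPM in PC5 (log2 ratio -0.58, -0.59 to -0.56) and 1239 against 1757 CPM in PC20 (-0.50, -0.52 to -0.48). *Fn1* was lower with one by log2 ratios of -0.38 (-0.41 to -0.36) and -0.45 (-0.49 to -0.41). *Thbs1* was lower by -0.40 (-0.45 to -0.35) in PC5 and -1.58 (-1.96 to -1.20) in PC20, the latter from 86 and 189 UMIs. Without thinning the PC20 value was -0.94 (-1.11 to -0.77), from 867 and 409 UMIs. *Cd44* was slightly higher with one, by 0.11 (0.08 to 0.15) and 0.15 (0.07 to 0.23). The *Postn* ratio in PC5 was 0.01 (-0.06 to 0.07) but -0.17 (-0.21 to -0.12) without thinning, and that of *Thbs2* in PC20 rests on 17 UMIs. Among cells without such a UMI, as deposited, all 5 genes stayed at least 2-fold higher in PC5, with log2 ratios of 1.44 for *Spp1*, 1.88 for *Cd44*, 3.84 for *Thbs1* and 8.01 for *Thbs2*. *Postn* there had 0 UMIs in PC20 and a log2 ratio of at least 10.07 against a floor of 3 UMIs over the library.

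The levels also moved with the depth of a cell. When PC5 cells were put into 4 equal bins by total UMIs, *Spp1* ran from 6050.1 CPM in the shallowest to 4421, 3840.3 and 3066 CPM, *Thbs2* from 137 to 71.8 CPM and *Fn1* from 658 to 466 CPM. *Cd44* ran the other way, from 275 to 388 CPM, and *Sparc* lay between 972 and 1083 CPM. In PC20 *Spp1* had 1709, 1287, 1421 and 1359 CPM in the bins, and *Sparc* between 1145 and 1192. The bins show that *Spp1* was higher in every PC5 bin than in any PC20 bin. The same held for *Cd44*, with at least 275 CPM in PC5 bins and at most 111 CPM in PC20 bins. For *Fn1* the ranges nearly met, at 466 to 658 CPM in PC5 bins and 358 to 461 CPM in PC20 bins, so the nearest bins were not ordered. The bins were cut within each library and cover unlike depths, from 1797 to 96888 UMIs in PC5 and from 1909 to 485943 in PC20.

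Of 61 genes related to the 8 by family, by structure or as receptors and partners, 36 were seen by the 10% rule. Of these 36, 19 were at least 2-fold higher in PC5 and 4 at least 2-fold higher in PC20, with a median log2 ratio of 1.15, beside 17.9%, 19.1% and a median of -0.03 over all 10504 genes seen. Of the 36, 9 met the 10% limit in PC5 alone and 3 in PC20 alone, so that the limit favoured a difference in most of these. They are *Sparcl1*, *Tnxb*, *Tgfbi*, *Ctgf*, *Emilin1*, *Sdc3*, *Has2*, *Cemip* and *Tnfaip6* for PC5, all past 2-fold, and *Itga4*, *Hyal1* and *Itga8* for PC20. Of the latter, *Itga8* was not past 2-fold and its level was higher in PC5 (4.74 CPM against 3.53 CPM in PC20). The 24 seen in both libraries had 10 past 2-fold in PC5 and 2 in PC20, with a median log2 ratio of 0.45. The same values were not computed for all genes seen in both libraries, so no excess was read from these 24. Of the 3 other thrombospondin genes, 0 passed the 10% limit. Among them *Thbs3* had the most UMIs, with 499 in PC5 and 127 in PC20 (2.24 and 0.664 CPM). In the SPARC family, *Sparcl1* (hevin, log2 ratio 9.08) and *Fstl1* (5.37) were seen and both were higher in PC5, unlike *Sparc*. Of the tenascins only *Tnxb* was seen (6.65), with a larger ratio than *Tnc* (0.42), which was also higher in PC5. *Tgfbi*, which shares the fasciclin domains of periostin, had a log2 ratio of 6.08. In the CCN family, another group of matricellular genes, *Ctgf* (5.47) and *Wisp1* (1.52) were past 2-fold and *Cyr61* was not (0.10). *Ctgf* stood at 238 CPM in PC5 against 5.37 CPM in PC20, and *Cyr61* 114 and 106 CPM. Of the 4 other bone and tooth phosphoprotein genes, the family of *Spp1*, 0 reached the 10% limit.

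Of 17 receptor genes 12 were seen, with 5 past 2-fold in PC5 and 1 in PC20. The shares past 2-fold over all 10504 genes seen were 17.9% in PC5 and 19.1% in PC20. Among these receptors, *Sdc3* met the limit for being seen only in PC5, and *Itga4* and *Itga8* only in PC20. That limit therefore favoured a difference in *Sdc3* and *Itga4*. *Itgav*, a subunit of integrins that bind osteopontin, fibronectin and periostin, stood at 292 CPM in PC5 against 57.7 CPM in PC20 (log2 ratio 2.34). *Itgb1*, the beta subunit of most fibronectin receptors, had 771 and 479.5 CPM (0.69), and its partner *Itga5* 74.2 and 36.0 CPM (1.04). *Lrp1*, which takes up thrombospondins, had a log2 ratio of 1.62, and the syndecans *Sdc1* and *Sdc3* had 2.27 and 3.96. *Cd47*, a receptor of thrombospondin 1, was higher in PC20 by less than 2-fold (-0.43), and *Itga4* was the gene past 2-fold in PC20 (-2.90, from 122 and 778 UMIs).

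Among 13 genes of hyaluronan and CD44, 11 were seen, 6 of them past 2-fold in PC5 and 2 in PC20. Over all 10504 genes seen, 17.9% and 19.1% passed 2-fold in PC5 and PC20. The hyaluronan synthase *Has2* (3.66) and the hyaluronan-degrading genes *Cemip* (9.66), *Hyal2* (1.26) and *Tmem2* (1.96) were higher in PC5. So were the hyaluronan-binding genes *Vcan* (2.04) and *Tnfaip6* (9.70). *Has2*, *Cemip* and *Tnfaip6* met the 10% limit only in PC5, so that limit favoured a difference in them. *Hyal1* (-2.19), which met the limit only in PC20, and *Hmmr* (-1.51), a hyaluronan receptor that is also a mitotic gene, were higher in PC20. Of the other adhesive glycoproteins, *Nid1* (4.58) and *Emilin1* (6.50) were past 2-fold in PC5, *Ecm1* (-1.04) in PC20, and *Mfge8*, *Npnt* and *Nid2* were not. *Emilin1* met the limit only in PC5. When genes were chosen and compared in thinned cells, 17 related genes were at least 2-fold higher in PC5 and 1 in PC20. Of all 8364 genes chosen in that way, 19.0% and 18.3% were. The number of related genes chosen in that way is not given, so no share of them was set beside these. Genes that met the limit in PC5 alone, such as *Tgfbi*, are among the 17.

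**Figure D5:**
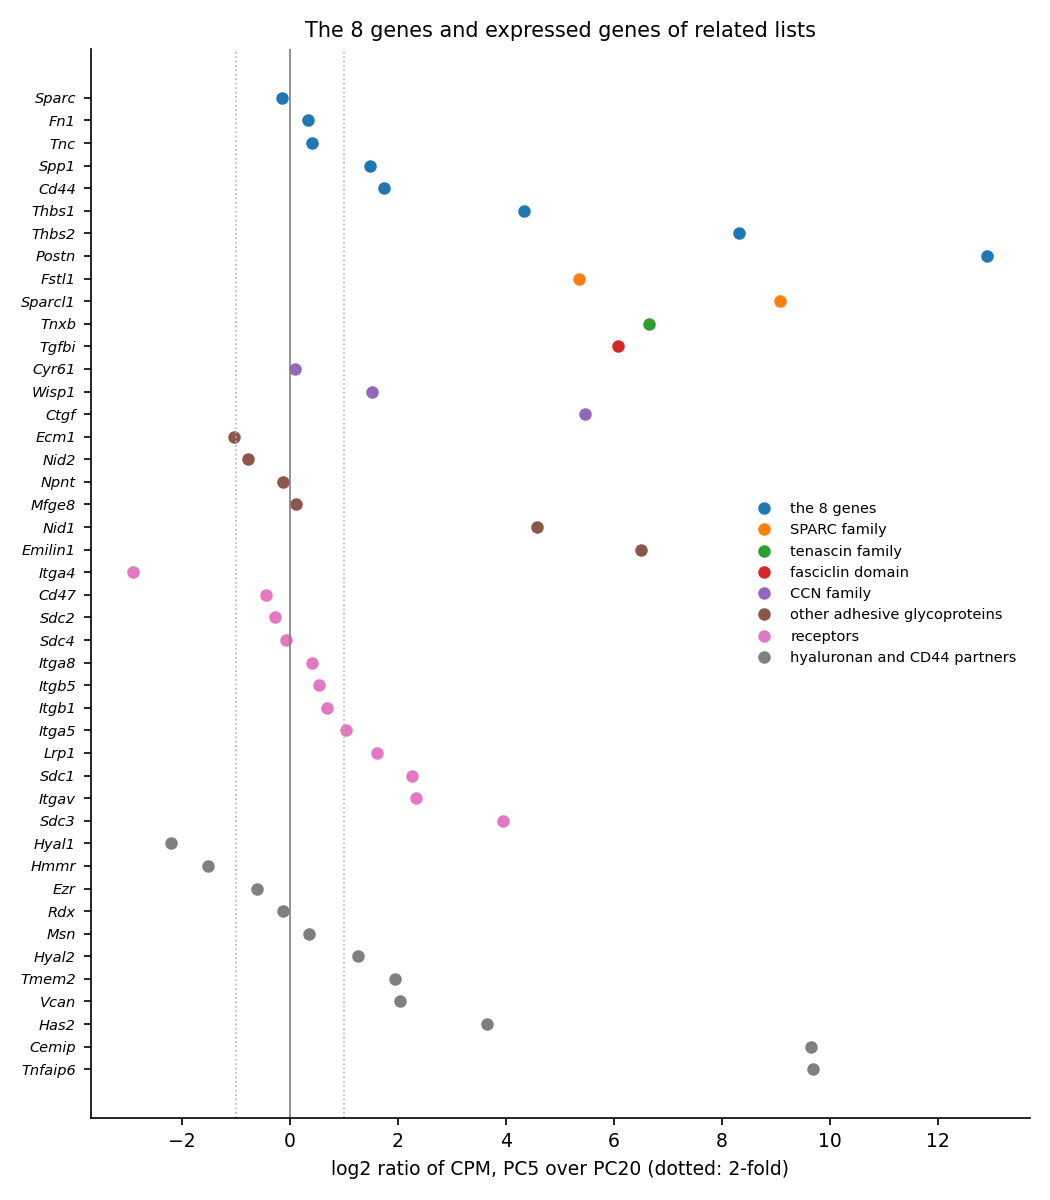
Log2 ratio of CPM, PC5 over PC20, of the 8 genes (top, blue) and of the 36 related genes seen by the 10% rule, coloured by list, with dotted lines at 2-fold. Most points lie right of 0 (25 of the 36 related genes, beside 48.9% of all 10504 genes seen). *Sparc*, *Fn1* and *Tnc* sit near 0, while *Sparcl1* (9.08), *Fstl1* (5.37) and *Tnxb* (6.65) of the SPARC and tenascin families lie far to the right. Of the 36, 9 met the 10% limit in PC5 alone, among them *Sparcl1* and *Tnxb*, so that limit favoured a place to the right of 0.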

How the data were processed

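Single-cell RNA-seq of cultured brain PCs was analysed in 1 library per passage, grouped by the passage in the sample titles. Libraries were made with the 3′ v3.1 droplet kit. The authors mapped reads to mm10 with Cell Ranger 5.0 (the file headers give 5.0.1), called cell barcodes and deposited UMI counts per gene and barcode without normalization. Here, barcodes with over 1000 genes and mitochondrial UMIs under 20% were kept, as the study's methods state. Adult and embryonic cells were not analysed here. No doublet caller was run, and the deepest 1% of cells were left out as an alternative.

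UMIs were summed over kept cells (223054273 in PC5, 191122251 in PC20) and scaled to CPM, which gives deeper cells more weight. The log2 ratio is PC5 over PC20 without a pseudocount. Where PC20 held 0 UMIs, a floor of 3 UMIs over the library gave a lower bound. Intervals (95%) are exact Poisson for CPM, conditional binomial for ratios and Clopper-Pearson for shares. All of these describe counting error alone. No test between passages was made, since cells within a library do not replicate a passage. Thinning drew 10500 UMIs per cell without replacement (the 10th percentile of UMIs per kept cell, lowered to the next 500), with shallower cells left out (1103 in PC5, 275 in PC20). A gene was called seen when 10% or more of the cells of 1 of the libraries held its UMI. High cells were those at or above the 95th percentile of a gene's thinned UMIs. Gene positions are from GENCODE M21 (GRCm38) and upstream sequences from RefSeq (GRCm38.p6). Python 3.11.15, NumPy 2.4.6, SciPy 1.17.1 and pandas 2.3.3 were used, and the calculations were tested on simulated data.

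The 8 genes and all lists were chosen with earlier results of these data known. Named besides the 8 genes are the listed genes past 2-fold or behind a count of 5 or fewer, and the 3 genes with the highest rho (at least 0.3), of which 1 is not reported here. *Cd47*, *Itgb1*, *Cyr61*, *Mfge8*, *Npnt*, *Nid2* and the high-cell overlaps were picked after their values were seen. Alternatives were stricter or no cell filters, a pseudocount of 1 or 0.1, thinned cells, other library totals and weights, centring, and leaving out cells with *Mki67* or *Top2a*. Leaving out barcodes that both libraries share was added after seeing the data.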

Additional observations from a re-analysis of the deposited data

How the results depend on the processing

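No paired analysis was possible because each passage has 1 library. The 8 genes kept their direction under every alternative that was run, and 5 were at least 2-fold higher in PC5 and 0 in PC20 in each, except that a pseudocount of 1 on means scaled to 10000 UMIs per cell gave 4. That pseudocount also lowered the share of all genes past 2-fold to 1.40% higher in PC5 and 1.37% higher in PC20, and a pseudocount of 0.1 to 9.22% and 8.14%, as it shrinks the ratio of low genes. Without the pseudocount settings, log2 ratios ranged from 10.07 to 13.86 for *Postn*, 8.01 to 8.46 for *Thbs2* and 3.84 to 4.60 for *Thbs1*. They ranged from 1.71 to 1.88 for *Cd44*, 1.44 to 1.60 for *Spp1* and 0.40 to 0.67 for *Tnc*. For *Fn1* the range was 0.22 to 0.42 and for *Sparc* -0.29 to -0.11. Ratios of single genes with a pseudocount are not given, so these ranges do not cover those settings. The outer *Tnc*, *Fn1* and *Sparc* values (0.67, 0.22 and -0.29) came from cells that lacked *Mki67* and *Top2a* UMIs. The *Postn* range rests on 2 or fewer PC20 UMIs. Of the related genes, 4 were 2-fold higher in PC20, but 2 in cells that lacked *Mki67* and *Top2a* UMIs and 1 in thinned cells. Of all genes seen, 19.1%, 19.0% and 18.3% were at least 2-fold higher in PC20 in these settings. The numbers of related genes seen in the last 2 settings are not given, so no share of them was compared. After thinning, *Itga4* (3.82% of PC20 cells) and *Hyal1* (8.34%) no longer met the 10% limit. The cause of the other changes in these counts was not tested. The low counts of *Postn* and *Thbs2* in PC20, with 2 and 56 UMIs, limit the precision of their ratios. The Fano factor moved with thinning depth, to 9.33 for *Thbs1* in PC5 at 5000 UMIs and 32.5 without thinning, against 16.0.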

Other observations

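Barcodes that the filter left out (679 in PC5, 135 in PC20) held few genes or many mitochondrial UMIs and were not part of the comparisons. In PC5 they had 48.7 CPM of *Thbs1*, 62.8 CPM of *Thbs2*, 48.7 CPM of *Postn*, 3732 CPM of *Spp1*, 657 CPM of *Sparc* and 167 CPM of *Cd44*. *Thbs1*, *Thbs2*, *Postn*, *Sparc* and *Cd44* were thus lower there than in the kept cells, and *Spp1* was near its level in them. In PC20 the left-out barcodes held 347 *Spp1* and 176 *Sparc* UMIs, 43 of *Tnc*, 3 of *Thbs1* and 0 of *Thbs2* and *Postn*. The *Tnc* level there was 234 CPM, above the 97.5 CPM of kept PC20 cells.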
